A study of Mus musculus with 28 samples.

Results

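The Jumonji histone demethylases described here are 10 mouse genes, Kdm2b, Kdm3a, Kdm3b, Kdm4a, Kdm4b, Kdm4c, Kdm5b, Kdm5c, Kdm6b and Kdm7a. They were chosen by name, with earlier results of these data known, out of 55536 genes counted in every library. Their values come from bulk mRNA sequencing of direct co-cultures of cancer and host cells, in 7 groups of 4 libraries that all carry the genotype WT. The cancer cells were EO771, a mouse mammary carcinoma line, taken from culture alone, from culture on C2C12 or from culture on MLg. The host cells were C2C12, a mouse myoblast line used as myotubes, and MLg, a line of mouse lung fibroblasts, each taken from culture alone or with EO771 growing on it. All lines were kept in DMEM with fetal bovine serum and antibiotics. Neither the length of co-culture nor the way the partner lines were parted before RNA extraction is given in the sources used here. Nothing says that replicates came from separate cultures. The p-values therefore set differences between group means against the spread of these libraries only, and that spread may be technical. The series title asks about hypoxia as a driver of what muscle cells do to cancer cell growth.

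Jumonji demethylases remove methyl groups from lysines of histones in a reaction that consumes molecular oxygen and 2-oxoglutarate and needs iron. Methylation of histone H3 at lysine 4 and lysine 36 goes with active genes, and methylation at lysine 9 and lysine 27 with silenced ones, so the family holds enzymes that remove marks of both kinds. Several of these genes, Kdm3a and Kdm4b among them, are known targets of the hypoxia-inducible transcription factors (HIF) in cancer cells.

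Library totals ran from 27.6 to 96.5 M counts. No odd count occurred in 5 libraries. These were R3-1, R5-1 and R6-1 among the 4 of EO771 with C2C12, and R5-1 and R6-1 among the 4 of MLg with EO771. They stand apart in this way from the libraries of the lines alone, and results that lost a call without them are given both ways. EO771 with MLg held 2 pairs of libraries that differed from each other more than within the pairs, R6-1 and R6-2 against R5-1 and R7-1. Among the C2C12 libraries those of R number 3 had the lowest summed myotube markers, 362 to 725 CPM (counts per M of a library's total) against 2150 to 4820 CPM in the rest. The labels were checked against marker genes. In EO771 alone 5 of 8 epithelial markers had counts, with a summed level of 92.0 to 96.8 CPM, and Krt19, Cldn3 and Cldn4 were at 0. All 12 myotube markers had counts in C2C12 and all 11 fibroblast markers had counts in MLg alone, but the summed fibroblast markers were as high in C2C12 alone, 27600 to 32700 CPM, as in MLg alone, 25600 to 32000 CPM. Transcripts of the partner line were present in co-cultured libraries. Genes found at 20 CPM or more in the partner and under 0.2 CPM in the line alone reached a median of 0.874% ± 0.324 (SD, n = 4) of the partner's level in EO771 with C2C12 and of 1.54% ± 0.385 (SD, n = 4) in EO771 with MLg. The same measure was 4.13% ± 0.783 (SD, n = 4) in C2C12 with EO771 and 8.36% ± 3.13 (SD, n = 4) in MLg with EO771.

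In EO771 cells grown on C2C12 myotubes, 5 of the 10 demethylase genes rose against EO771 alone and none fell, by edgeR's quasi-likelihood test at an adjusted p under 0.05 over 15794 genes. Over all genes tested the share called higher was 18.7% and the share called lower 14.3%. The 10 genes were chosen with earlier results of these data known, so setting their calls beside these shares is not an unbiased comparison. Of 18 other Jumonji genes tested, 2 were called higher and 3 lower. With library totals in place of TMM scaling the calls over all genes moved from 2949 higher and 2256 lower to 3433 higher and 1664 lower, and the 5 demethylase genes stayed called. The risers were Kdm7a, Kdm5b, Kdm4b, Kdm6b and Kdm3a, in order of size. The median log2 fold change of the 10 genes was 0.27, against 0.0006 over all genes tested. All 4 co-cultured libraries lay above all 4 libraries of EO771 alone for these 5 genes, and also for Kdm4c, which was not called. The share of all genes without overlap was not counted, so this adds no support to the calls. In bulk RNA, fewer cells of a type and less RNA per cell cannot be told apart, and the values below are averages over all cells of a library.

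**Figure D1:**
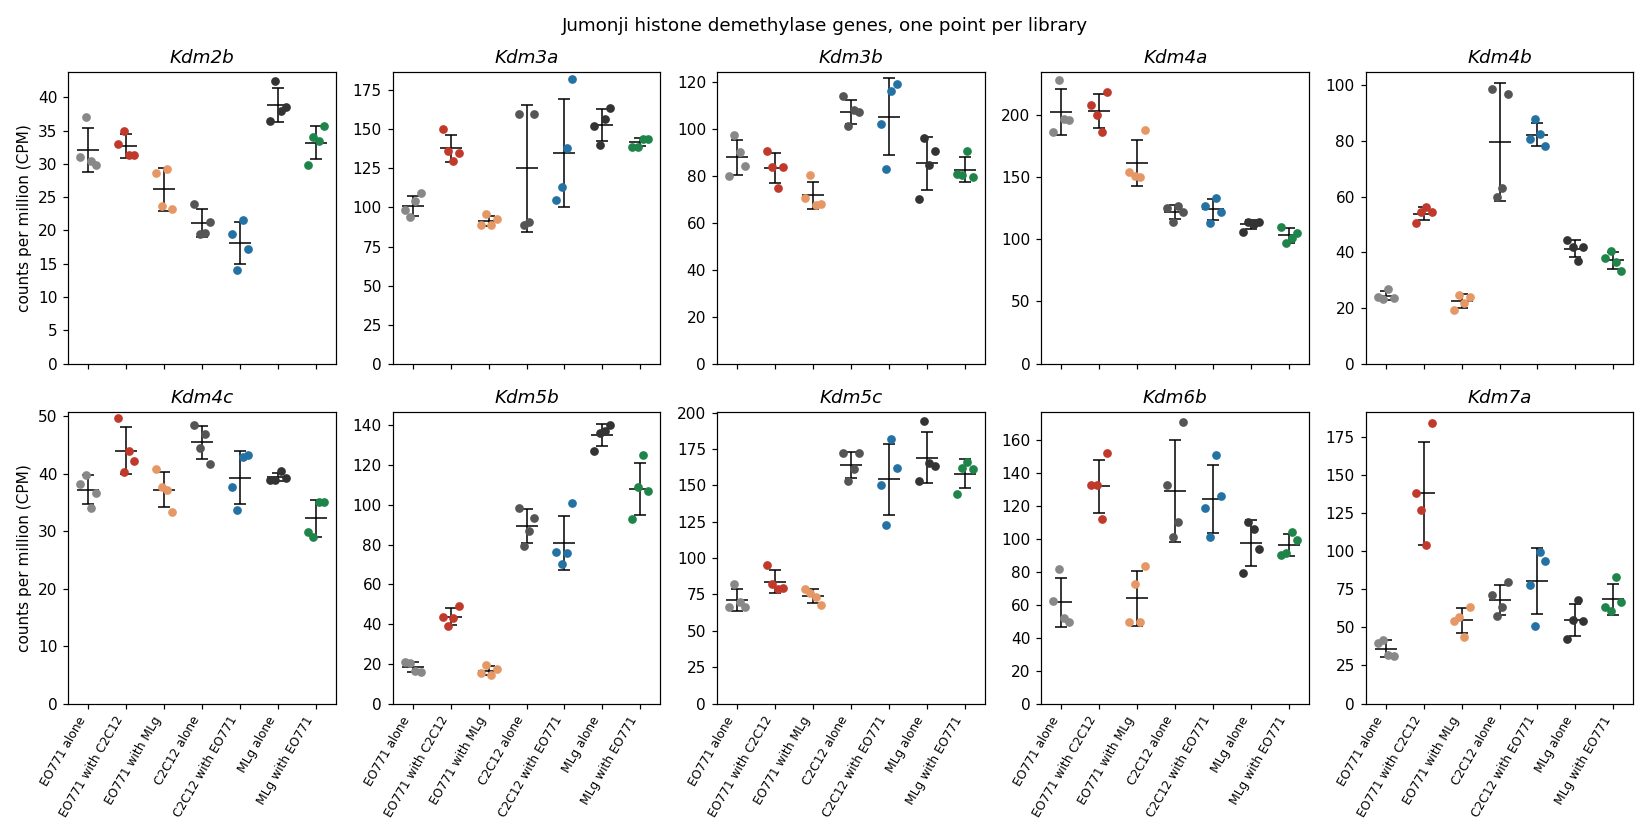
CPM (vertical axis, from 0) of the 10 genes in each of the 28 libraries, by group (horizontal axis); points are libraries, the short bar is the group mean and the whiskers are ± 1 SD (n = 4). Kdm7a, Kdm5b, Kdm4b, Kdm6b and Kdm3a sit higher in EO771 with C2C12 than in EO771 alone with no overlap, and Kdm5b is lowest in the 3 EO771 groups.

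Of the H3K9 demethylases, Kdm7a, a PHD-finger enzyme that acts on H3K9 and H3K27, moved most. Its level was 39.6, 41.9, 32.2 and 30.9 CPM in EO771 alone and 138, 127, 104 and 184 CPM in EO771 with C2C12. The lowest co-cultured library was thus far above the highest library of EO771 alone, and the co-cultured libraries were widely spread among themselves. The log2 fold change was 1.86 ± 0.153 (SE; adjusted p = 7.48e-08, edgeR's quasi-likelihood test). Kdm4b, which removes tri- and dimethylation of H3K9, was at 23.9, 23.3, 26.8 and 23.5 CPM alone and at 50.5, 54.5, 56.3 and 54.5 CPM with C2C12. Both sets were tight, and the log2 fold change was 1.07 ± 0.105 (SE; adjusted p = 6.06e-07). Kdm3a, which removes mono- and dimethylation of H3K9, had the smallest rise. It was at 98.4, 93.9, 104 and 109 CPM alone and at 150, 136, 130 and 135 CPM with C2C12, a log2 fold change of 0.37 ± 0.0869 (SE; adjusted p = 0.00296).

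The other 3 enzymes of H3K9 did not pass the test. Kdm3b, the close relative of Kdm3a, had a mean of 87.8 ± 7.54 CPM (SD, n = 4) alone and 83.2 ± 6.43 CPM (SD, n = 4) with C2C12, and the groups overlapped. Kdm4a, which acts on H3K9 and H3K36, was at 202 ± 18.4 CPM (SD, n = 4) alone and 203 ± 13.5 CPM (SD, n = 4) with C2C12, again with overlap. Kdm4c, a further enzyme of H3K9 and H3K36, was at 38.2, 39.8, 34.0 and 36.7 CPM alone and at 49.7, 40.3, 43.9 and 42.1 CPM with C2C12. These groups did not overlap, yet the log2 fold change of 0.17 ± 0.0997 (SE) had an adjusted p of 0.208 in edgeR's quasi-likelihood test. Within the Kdm4 subfamily the value of Kdm4b was large and those of Kdm4a and Kdm4c were small. The difference between subfamily members was not tested.

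The H3K4 enzymes also had unlike values, and their difference was not tested either. Kdm5b, which removes tri- and dimethylation of H3K4, was at 21.1, 20.4, 16.2 and 16.1 CPM in EO771 alone and at 43.7, 38.9, 43.1 and 49.0 CPM in EO771 with C2C12. Its log2 fold change was 1.17 ± 0.128 (SE; adjusted p = 1.93e-06, edgeR's quasi-likelihood test). Its X-linked relative Kdm5c had 71.2 ± 7.59 CPM (SD, n = 4) alone and 83.8 ± 7.76 CPM (SD, n = 4) with C2C12, with overlapping groups and an adjusted p of 0.228. Kdm6b, which removes tri- and dimethylation of H3K27, was at 62.0, 81.9, 52.2 and 49.5 CPM alone and at 133, 133, 112 and 152 CPM with C2C12. The log2 fold change of Kdm6b was 1.04 ± 0.169 (SE; adjusted p = 0.000128). Kdm2b, an H3K36 demethylase that also recruits a Polycomb complex to CpG islands, was at 32.1 ± 3.32 CPM (SD, n = 4) alone and 32.7 ± 1.76 CPM (SD, n = 4) with C2C12 and was not called. Kdm2b shares 627 exonic bases, 5.77% of its exon length, with Rnf34 on the opposite strand, and whether counting used the strand is not stated, so its reads and those of Rnf34 (25.4 CPM on average) may be mixed in part.

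The rises of Kdm4b, Kdm5b, Kdm6b and Kdm7a were also called without the 3 all-even libraries, an alternative chosen after seeing the data that leaves EO771 with C2C12 with R5-2 alone, whose spread is then taken from the other groups. Their log2 fold changes were 1.10, 1.02, 1.06 and 1.76, with adjusted p of 0.000513, 0.00414, 0.017 and 1.12e-05. Kdm3a kept its size there, 0.37, but not its call (adjusted p = 0.168). Myotube markers moved with these results: 11 of 12 had counts in EO771 with C2C12, with a summed level of 89.7 to 366 CPM against 9.45 to 11.0 CPM in EO771 alone, and Tnnc2 was at 0. The partner share is a median over 264 genes, and its highest value in these libraries was 1.22%. At that share C2C12 RNA would add 1.64 CPM to Kdm3a and between 0.981 and 1.52 CPM to the other 4 risers. The differences between the groups were 25.3 CPM (Kdm5b) to 102 CPM (Kdm7a). After subtraction of partner counts at each library's median share all 5 genes were still called. Summed myotube markers stood at a larger part of the partner's level than 1.22%. They reached 366 CPM in R6-1, against 725 to 3110 CPM in C2C12 with EO771. The additions and the subtraction given above hold for the median share only. What C2C12 RNA would add to the risers at the larger part was not tested. Mean levels in C2C12 with EO771 were 135 CPM for Kdm3a, 82.2 CPM for Kdm4b, 80.8 CPM for Kdm5b, 124 CPM for Kdm6b and 80.4 CPM for Kdm7a. Kdm7a, Kdm5b and Kdm6b were highest in R3-1, with 89.7 CPM of summed myotube markers and a partner share of 1.06%. Kdm4b was highest in R6-1, with 366 CPM and 1.22%, and Kdm3a in R5-1, with 127 CPM and 0.504%. Fibroblast markers, which C2C12 also expresses, went from 664 to 939 CPM alone to 1000 to 1430 CPM with C2C12 (all 11 with counts), with 7 of the 10 tested called higher and 1 lower. Epithelial markers summed to 92.0 to 96.8 CPM alone and to 181 to 258 CPM with C2C12 (6 of 8 with counts, Cldn3 and Cldn4 at 0), with 1 of the 3 tested called higher and 1 lower. The part of the fibroblast and epithelial markers in the result was not tested.

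Promoter sequences are shown for 3 of the risers and for Kdm4c, to set the letters near the start sites beside the response. They come from RefSeq windows on GRCm38.p6 that run from 250 bases before to 50 bases after a start, and are printed on the gene's strand up to the first annotated transcribed base. Windows were used for 7 of the 10 genes, which leaves out the risers Kdm4b and Kdm6b, and Kdm3b. Capitals mark the letters ACGTG or GCGTG, the core of the HIF binding element, read on either strand (CACGT or CACGC on the strand printed). The letters CACGTG, an E-box, hold ACGTG on both strands and count for each.
Kdm3a, chr6:71632991-71633167, minus strand, 177 bases: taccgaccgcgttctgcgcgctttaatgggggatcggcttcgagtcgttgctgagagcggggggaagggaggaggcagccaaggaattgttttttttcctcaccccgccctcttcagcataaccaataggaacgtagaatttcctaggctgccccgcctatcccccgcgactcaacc
Kdm5b, chr1:134559928-134560170, plus strand, 243 bases: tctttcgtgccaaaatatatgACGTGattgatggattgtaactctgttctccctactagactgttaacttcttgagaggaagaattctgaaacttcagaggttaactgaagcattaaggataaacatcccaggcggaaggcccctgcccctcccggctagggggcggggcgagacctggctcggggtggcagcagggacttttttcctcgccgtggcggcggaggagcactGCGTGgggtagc
Kdm7a, chr6:39206790-39207023, minus strand, 234 bases: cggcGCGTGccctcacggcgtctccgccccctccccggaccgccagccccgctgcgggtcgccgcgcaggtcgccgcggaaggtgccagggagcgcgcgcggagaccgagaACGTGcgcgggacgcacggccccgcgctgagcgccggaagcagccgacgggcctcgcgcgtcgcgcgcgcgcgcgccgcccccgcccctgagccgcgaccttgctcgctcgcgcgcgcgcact
Kdm4c, chr4:74251715-74251878, plus strand, before the second of its 2 RefSeq starts, 164 bases: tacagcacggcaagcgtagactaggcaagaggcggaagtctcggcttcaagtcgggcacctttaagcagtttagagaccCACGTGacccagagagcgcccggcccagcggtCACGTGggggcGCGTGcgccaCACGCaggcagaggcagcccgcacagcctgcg
Kdm5b and Kdm7a each held 1 ACGTG and 1 GCGTG. The printed Kdm3a stretch held none, and 1 GCGTG lay in the transcribed end of its window. The windows of the other Kdm3a starts, at 71609139 and 71632686, held no match. The Kdm4c window held 6 matches, 4 of them from 2 CACGTG, although Kdm4c was not called. The last 50 bases of that window were found in no GENCODE transcript of Kdm4c. Annotated exon bases lie upstream of the stretch printed. The window of the first Kdm4c start held no match, as did those of Kdm4a and Kdm5c. Kdm2b, which was not called either, held GCGTG in all 4 of its windows, 3 times in 2 of them and once in each of the others. The 2 windows with 3 matches overlap (122900301 to 122900600 and 122900318 to 122900617), so matches are counted in both. For the windows from 122900318 and from 122988458, the last 50 bases were found in no GENCODE transcript of Kdm2b. Of all 32851 RefSeq windows of 300 bases, 43.8% held ACGTG or GCGTG, 19.6% ACGTG, 32.4% GCGTG and 7.15% CACGTG. The matches are a description of letters and not of binding.

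On MLg fibroblasts, EO771 cells changed 2 of the 10 genes against EO771 alone, Kdm7a upwards and Kdm4a downwards. Over all 15794 genes tested 5.99% were called higher and 3.60% lower, and the median log2 fold change was -0.12 over the 10 genes and 0.006 over all. Kdm7a was at 54.3, 56.6, 43.6 and 63.7 CPM with MLg, all above the 30.9 to 41.9 CPM of EO771 alone. Its log2 fold change was 0.61 ± 0.149 (SE; adjusted p = 0.0117, edgeR's quasi-likelihood test). Without the pair R5-1 and R7-1 of EO771 with MLg it was 0.45 with an adjusted p of 0.109, an alternative chosen after seeing the data. Kdm4a was at 154, 151, 150 and 188 CPM with MLg and at 186, 228, 197 and 196 CPM alone. The 188 CPM of R7-1 lay within the range of EO771 alone, so the groups overlapped. The log2 fold change of Kdm4a was -0.32 ± 0.0933 (SE; adjusted p = 0.0366), and the call ended when any of 7 libraries was left out in turn: EO771 alone R3-2, R5-1 or R6-2, EO771 with C2C12 R5-2, or EO771 with MLg R6-1, R5-1 or R6-2 (adjusted p 0.0535 to 0.146). The call also ended after subtraction of partner counts (adjusted p = 0.0801). Fibroblast markers moved with these results: 10 of 11 had counts in EO771 with MLg, with Thy1 at 0, and 6 of the 10 tested were called higher and 1 lower. Their summed level was 825 to 1150 CPM against 664 to 939 CPM in EO771 alone, with overlap. At the highest partner share, 1.88%, MLg RNA would add 1.29 CPM to Kdm7a, where the group means differed by 18.4 CPM, and Kdm7a was still called after subtraction of partner counts (0.62, adjusted p = 0.0216).

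The genes that rose with C2C12 had other values with MLg, in comparisons that share the libraries of EO771 alone. The log2 fold changes with MLg were -0.13 ± 0.087 for Kdm3a, -0.11 ± 0.105 for Kdm4b, -0.15 ± 0.128 for Kdm5b and 0.07 ± 0.168 for Kdm6b (SE), and none was called. Kdm2b lay lower with MLg in every library, 23.2 to 29.3 CPM against 29.9 to 37.0 CPM, with an adjusted p of 0.126. Kdm3b was at 67.4 to 80.1 CPM against 79.9 to 97.1 CPM with an adjusted p of 0.0895, and was called when EO771 with MLg R5-1 was left out (-0.36, adjusted p = 0.021) and when R5-1 and R7-1 were (-0.33, adjusted p = 0.0407).

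The direct contrast of EO771 with C2C12 against EO771 with MLg tests the difference between the partners. It called 5 of the 10 genes higher with C2C12 and none lower, beside 15.0% of all genes higher and 12.7% lower (2368 and 2003 genes, or 3024 and 1381 with library totals in place of TMM). The genes were Kdm3a, Kdm4b, Kdm5b, Kdm6b and Kdm7a. Kdm5b had 43.7 ± 4.16 CPM (SD, n = 4) with C2C12 and 16.5 ± 2.28 CPM (SD, n = 4) with MLg, a log2 difference of 1.32 ± 0.129 (SE; adjusted p = 8.65e-07, edgeR's quasi-likelihood test). The log2 differences of the others were 1.25 ± 0.149 for Kdm7a, 1.18 ± 0.105 for Kdm4b, 0.97 ± 0.169 for Kdm6b and 0.50 ± 0.087 for Kdm3a (SE), with adjusted p of 8.98e-06, 2.86e-07, 0.000374 and 0.000344. No library of EO771 with MLg reached the lowest library of EO771 with C2C12 for any of the 5, and the share of all genes so separated was not counted. Without the all-even libraries Kdm3a was not called (0.51, adjusted p = 0.0686) and the other 4 were. Kdm4a had a log2 difference of 0.25 ± 0.0933 (SE; adjusted p = 0.0523), and was called in the fit with R number as replicate block (0.27, adjusted p = 0.0346). It was also called without EO771 with MLg R7-1, without R5-1 and R7-1, with library totals, by DESeq2 and with all 28 libraries in one fit (adjusted p 0.0164 to 0.0443). Kdm2b was called with library totals (0.32, adjusted p = 0.0388).

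**Figure D2:**
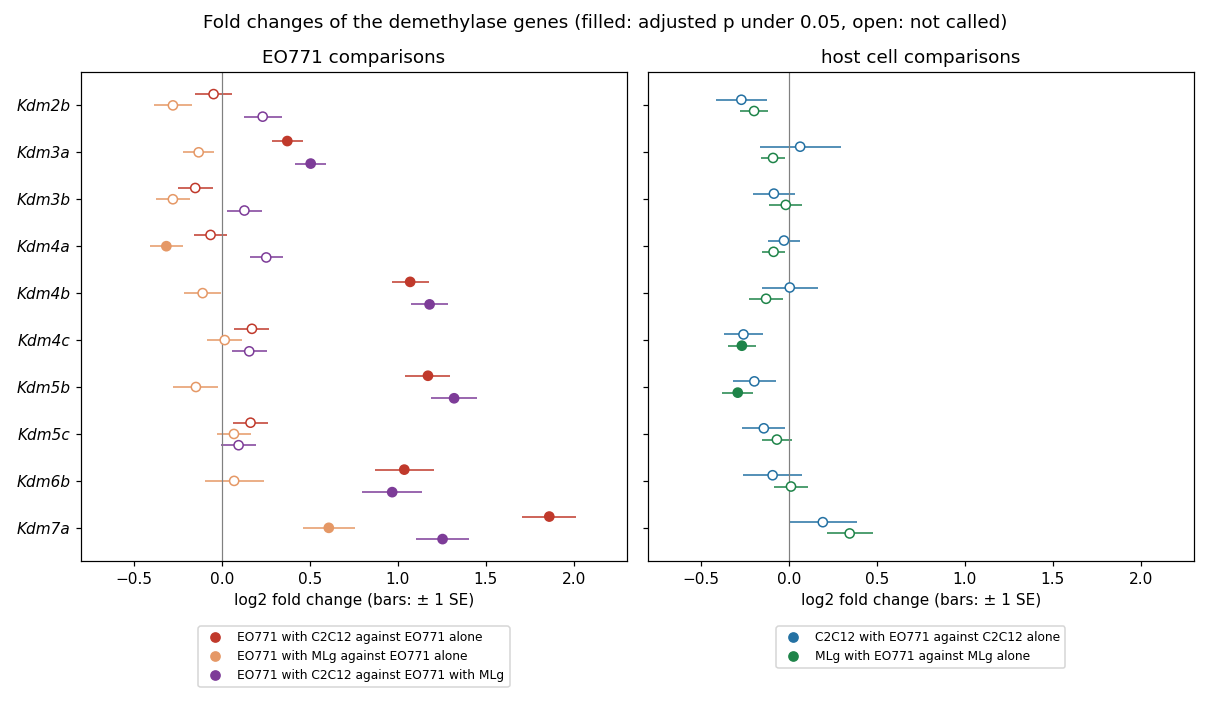
Log2 fold changes (horizontal axis, bars ± 1 SE) of the 10 genes (vertical axis) in 3 comparisons of EO771 groups (left) and 2 of host cells (right); filled points have an adjusted p under 0.05 and open points were not called. The largest values are those of Kdm7a, Kdm5b, Kdm4b and Kdm6b in EO771 with C2C12, and the largest host value in size is the 0.34 of Kdm7a in MLg.

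In the host cells, no gene of the 10 was called in C2C12 with EO771 against C2C12 alone by edgeR's quasi-likelihood test or by DESeq2, and 1, Kdm4c, had an unadjusted p under 0.05. The adjusted p of Kdm4c was 0.438. Over all 16625 genes tested 2.58% were called higher and 0.0962% lower. Log2 fold changes ran from -0.27 (Kdm2b) to 0.19 (Kdm7a), with SE of 0.0906 to 0.231. The C2C12 libraries were uneven: Kdm3a was at 160, 88.6, 90.9 and 160 CPM in C2C12 alone and at 105, 113, 138 and 182 CPM with EO771. Its 2 low values in C2C12 alone were the libraries of R number 3. Kdm4b had the same pattern, with 98.7, 59.7, 63.1 and 96.9 CPM alone and 80.6, 87.7, 82.6 and 78.0 CPM with EO771. The summed myotube markers in the same order were 3860, 362, 667 and 4820 CPM alone and 725, 3110, 2730 and 2150 CPM with EO771, and their part in the spread of Kdm3a and Kdm4b was not tested. Without the libraries of R number 3, Kdm3a had a log2 fold change of -0.18 (adjusted p = 0.928) and Kdm4b of -0.27 (adjusted p = 0.63).

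In MLg with EO771 against MLg alone, 2 of the 10 genes were called lower, Kdm4c and Kdm5b, and none higher, beside 9.89% of 16823 genes higher and 4.81% lower. Kdm4c was at 38.9, 38.9, 40.5 and 39.3 CPM alone and at 29.8, 29.0, 35.0 and 35.1 CPM with EO771, without overlap, a log2 fold change of -0.27 ± 0.0799 (SE; adjusted p = 0.0426, edgeR's quasi-likelihood test). Kdm5b was at 127, 136, 137 and 140 CPM alone and at 93.0, 109, 125 and 107 CPM with EO771, also without overlap, a log2 fold change of -0.29 ± 0.0878 (SE; adjusted p = 0.0441). Both calls ended when MLg alone R5-2, R6-1 or R6-2 or MLg with EO771 R5-1 or R6-1 was left out, and the call of Kdm4c also without MLg alone R3-2 and that of Kdm5b without MLg with EO771 R7-1 (adjusted p 0.0633 to 0.122). Without the 2 all-even libraries neither was called (adjusted p = 0.25 and 0.222). Subtraction of EO771 counts, whose share in these libraries reached 12.7%, gave -0.27 for Kdm4c (adjusted p = 0.105) and -0.17 for Kdm5b (adjusted p = 0.269). Kdm7a was at 63.6, 60.6, 82.9 and 66.6 CPM with EO771 and at 42.2, 55.2, 68.0 and 54.1 CPM alone, with overlap and an adjusted p of 0.0984. It was called with no filter on low counts (adjusted p = 0.0437) and when MLg alone R6-1 was left out (0.45, adjusted p = 0.0463).

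The difference between the C2C12 and the MLg response was tested as an interaction over the 16 host libraries. None of the 10 genes was called by edgeR's quasi-likelihood test or by DESeq2 and none had an unadjusted p under 0.05, beside 0.778% of 18647 genes called higher and 1.06% lower. The differences ran from -0.14 (Kdm7a) to 0.17 (Kdm3a) on the log2 scale, with SE of 0.105 to 0.247. These values do not show that the 2 lines responded alike.

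The 3 lines grown alone differed in their demethylase genes. EO771 alone was lower than C2C12 alone in 8 genes and higher in 2, Kdm2b and Kdm4a, where 42.0% of 18755 genes were lower and 36.2% higher. With library totals in place of TMM, which put the median of all genes at 0.02 instead of -0.12, the balance over all genes turned to 7230 lower and 7478 higher, and Kdm3a was no longer called. Against MLg alone it was lower in 7 genes and higher in 1, Kdm4a, with Kdm3b and Kdm4c not called, beside 40.8% of all genes lower and 36.8% higher. Kdm5b stood farthest apart, at 18.4 ± 2.71 CPM (SD, n = 4) in EO771, 89.4 ± 8.41 CPM (SD, n = 4) in C2C12 and 135 ± 5.55 CPM (SD, n = 4) in MLg. The log2 differences of EO771 were -2.43 ± 0.0985 from C2C12 and -2.87 ± 0.1 from MLg (SE; adjusted p = 3.11e-11 and 8.58e-12, edgeR's quasi-likelihood test). The rise on C2C12 to 43.7 CPM left Kdm5b in EO771 below every library of C2C12 and of MLg. Kdm4a ran the other way, with 202 CPM in EO771 against 122 ± 5.5 CPM (SD, n = 4) in C2C12 and 112 ± 3.61 CPM (SD, n = 4) in MLg. Kdm4b was at 24.4 CPM in EO771, 79.6 ± 21.1 CPM (SD, n = 4) in C2C12 and 41.3 ± 3.12 CPM (SD, n = 4) in MLg.

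C2C12 alone against MLg alone had 6 genes higher and 2 lower, beside 31.0% and 30.9% of all genes. With library totals in place of TMM, which put the median of all genes at -0.19 instead of -0.03, 3 were higher and 2 lower: Kdm4a, Kdm6b and Kdm7a were no longer called. Over all genes the calls then moved from 5816 higher and 5793 lower to 4797 and 7068. Kdm2b and Kdm5b were the 2 lower genes, with log2 differences of -0.72 ± 0.0912 and -0.44 ± 0.0922 (SE). The lower Kdm3a of EO771 against C2C12, -0.45 ± 0.162 (SE; adjusted p = 0.0206), overlapped between the groups and was not called without C2C12 alone R2-1 or EO771 alone R3-2, with R number as replicate block (adjusted p = 0.0563) or with library totals (-0.30, adjusted p = 0.129).

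Levels between genes were compared as CPM per kilobase of exon. In EO771 alone the order was Kdm4a (34.9 ± 3.19), Kdm3a (12.3 ± 0.783), Kdm5c (10.0 ± 1.07), Kdm6b (8.83 ± 2.11), Kdm4c (6.38 ± 0.423), Kdm3b (6.23 ± 0.535), Kdm4b (4.98 ± 0.33), Kdm7a (3.59 ± 0.538), Kdm2b (2.95 ± 0.306) and Kdm5b (1.11 ± 0.163), as CPM per kilobase ± SD with n = 4. The neighbours Kdm5c and Kdm6b, Kdm6b and Kdm4c, Kdm4c and Kdm3b, and Kdm7a and Kdm2b in that order had overlapping intervals of the mean ± 1 SD. With C2C12 the order within EO771 changed, with Kdm6b at 19.0 ± 2.32 in place 2 and Kdm7a at 13.8 ± 3.34 in place 4, while Kdm4a stayed first at 35.1 ± 2.34. The intervals of Kdm6b and Kdm7a each overlapped that of Kdm3a, 16.8 ± 1.06 in place 3, and Kdm7a overlapped Kdm5c in place 5. Kdm5b stayed last at 2.64 ± 0.251, overlapping Kdm2b at 3.00 ± 0.162. In both host lines alone Kdm5c was first, at 23.1 ± 1.28 in C2C12 and 23.8 ± 2.49 in MLg, and Kdm2b was last, at 1.94 ± 0.189 and 3.57 ± 0.234. In C2C12 alone the interval of Kdm5c overlapped that of Kdm4a, 21.1 ± 0.951, and in MLg alone it did not (Kdm4a 19.3 ± 0.624). Over the 7 group means Kdm5b had the widest range, 8.18-fold in CPM, and Kdm4c the narrowest, 1.41-fold.

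**Figure D3:**
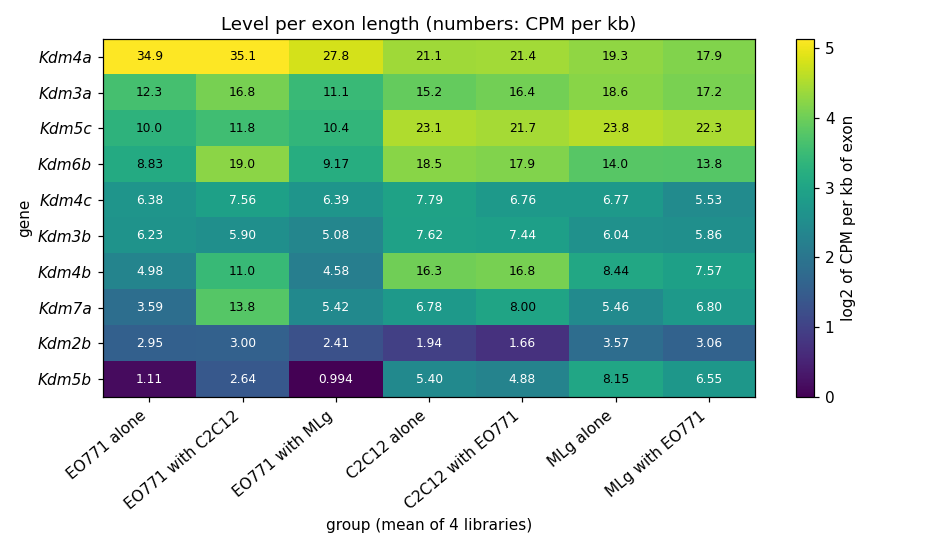
Mean level per exon length (CPM per kilobase, numbers in the cells; colour on a log2 scale) of the 10 genes (rows, sorted by EO771 alone) in the 7 groups (columns, n = 4 each). By group mean Kdm4a is highest in the EO771 groups, Kdm5c in the host groups, and Kdm5b is lowest in the EO771 groups.

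The genes whose pattern over the 28 libraries was most like a member's were named for Kdm3a and for Kdm5b, by Pearson's r of log2(CPM + 1) among 10903 genes. For Kdm3a these were Gzf1 (r = 0.884), Atg9a (r = 0.838) and Optn (r = 0.831). For Kdm5b the gene most alike was Dag1 (r = 0.984). Kdm4b, looked up after its values were seen, had Myom2 (r = 0.973), Bnip3 (r = 0.972) and Tnnt3 (r = 0.961). The 28 points fall into 3 lines and share depth and preparation, so these r describe the likeness of patterns between and within lines together.

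Further genes of histone methylation were tested in EO771 with C2C12 against EO771 alone, where 18.7% of all genes were called higher and 14.3% lower. Of 18 other Jumonji genes tested, 2 rose and 3 fell. Jarid2, a Polycomb partner without demethylase activity, rose by 0.54 ± 0.11 on the log2 scale (SE; adjusted p = 0.000993, edgeR's quasi-likelihood test), and Jmjd6, a hydroxylase, rose by 0.48 ± 0.094 (SE; adjusted p = 0.000682). Riox1, a ribosomal oxygenase, was at -0.68 ± 0.0957 (SE; adjusted p = 2.94e-05) and Kdm8 at -0.60 ± 0.114 (SE; adjusted p = 0.00056); the third faller was Riox2, chosen after its value was seen (adjusted p = 0.0186, lost without EO771 alone R3-2 or EO771 with C2C12 R6-1 or R3-1). The 2 genes of the LSD family, amine oxidases that demethylate without a Jumonji domain, were not called, and 1 had an unadjusted p under 0.05. Of the 5 methyltransferases of H3K9 tested 3 fell, Suv39h1 (-0.57 ± 0.0897), Suv39h2 (-0.56 ± 0.15) and Setdb1 (-0.44 ± 0.0934; SE), with adjusted p of 8.95e-05, 0.00726 and 0.00132. Of the 6 methyltransferases of H3K4, Kmt2c rose (0.64 ± 0.119, SE; adjusted p = 0.000429) and Setd1a fell (adjusted p = 0.0273, lost without EO771 alone R3-2 or R5-1 or EO771 with C2C12 R6-1 or R3-1). Of the 4 genes for H3K27 the Polycomb subunit Eed fell (-0.33 ± 0.0905, SE; adjusted p = 0.00821), and of the 5 for H3K36 none was called or had an unadjusted p under 0.05. Setdb1, Setd1a and Eed were named after their values were seen. Without the all-even libraries only Riox1, Kmt2c and Suv39h1 of the genes named in this paragraph were called, with adjusted p of 0.0499, 0.00707 and 0.0361.

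**Figure D4:**
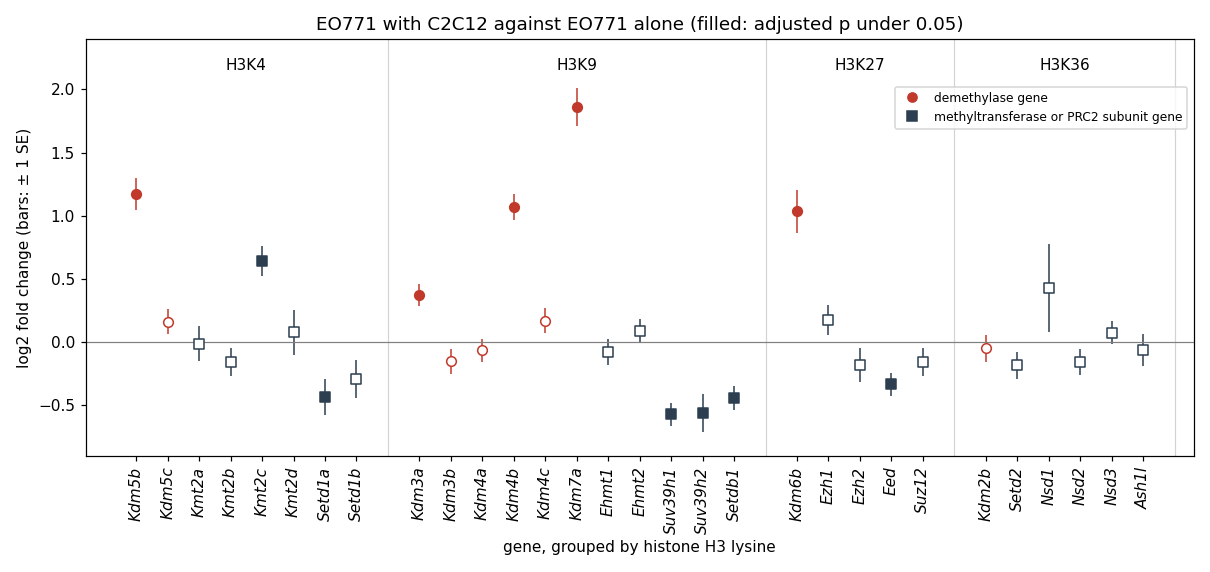
Log2 fold change (vertical axis, bars ± 1 SE) in EO771 with C2C12 against EO771 alone for demethylase genes (circles) and methyltransferase or PRC2 subunit genes (squares), grouped along the horizontal axis by the H3 lysine acted on, with enzymes of several lysines shown once; filled points have an adjusted p under 0.05. At H3K9 the filled circles (Kdm3a, Kdm4b, Kdm7a) lie above 0 and the filled squares (Suv39h1, Suv39h2, Setdb1) below it.

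Hypoxia reference genes, a list chosen with earlier results of these data known, were measured in the same libraries. In EO771 with C2C12 12 of 14 rose and 1 fell, beside 18.7% of all genes higher and 14.3% lower. Their median log2 fold change was 1.49, where the 10 demethylase genes had 0.27. Only risers at a mean of at least 5 CPM were followed without the all-even libraries, a fit that leaves 1 library of EO771 with C2C12. Their log2 fold changes there ran from 0.64 (Vegfa, which was not called) to 3.10 (Bnip3). Bnip3, a mitophagy receptor, went from 3.42 to 33.3 CPM (3.21 ± 0.205, SE; adjusted p = 3.59e-09, edgeR's quasi-likelihood test) and Egln3, a HIF prolyl hydroxylase, from 17.5 to 160 CPM (3.11 ± 0.168, SE; adjusted p = 6.87e-10). Pfkfb3, a regulator of glycolysis, was the gene that fell (-0.42 ± 0.13, SE; adjusted p = 0.0187, lost without EO771 alone R5-1 or EO771 with C2C12 R3-1 and without the all-even libraries). In EO771 with MLg none of the 14 rose and 1, Vegfa, fell, beside 5.99% of all genes higher and 3.60% lower. Vegfa was at -0.49 ± 0.132 (SE; adjusted p = 0.022, edgeR's quasi-likelihood test), a call lost without EO771 alone R3-1 or R3-2 or EO771 with MLg R6-1, R5-1 or R6-2. The same contrast called 1 of the other Jumonji genes, Hr, an H3K9 demethylase, lower (-0.81 ± 0.151, SE; adjusted p = 0.00121), and among the methyltransferases only Nsd1, at a mean of 1.57 CPM, higher. In C2C12 with EO771 no gene of any of these lists was called by edgeR's quasi-likelihood test, and 3 methyltransferase genes had an unadjusted p under 0.05. In MLg with EO771 3 of the 14 hypoxia reference genes rose and 3 fell, beside 9.89% of all genes higher and 4.81% lower. Ldha (0.71 ± 0.117) and Pfkfb3 (0.66 ± 0.202) had the largest rises and Adm (-0.60 ± 0.115) and Ndrg1 (-0.50 ± 0.119) the largest falls (SE). After subtraction of EO771 counts none of these 4 was called: Ldha was at 0.26 and Pfkfb3 at 0.01 (adjusted p = 0.22 and 0.983), while Adm was at -0.48 and Ndrg1 at -0.46 (adjusted p = 0.0543 and 0.0569). Without the 2 all-even libraries Ldha, Adm and Ndrg1 were called and Pfkfb3 was not (adjusted p = 0.327), nor were the other 2 of the 6 genes, Slc2a1 and Pdk1 (adjusted p = 0.277 and 0.0585). The call of Pfkfb3 was kept with only 1 of the 8 MLg libraries left out, MLg with EO771 R7-1. Among the other lists Ezh2, the H3K27 methyltransferase, was higher (0.33 ± 0.0759, SE; adjusted p = 0.0126) and Kdm1b, of the LSD family, lower (adjusted p = 0.0355), and Riox2 and Hspbap1 were higher (adjusted p = 0.0287 and 0.0355). After subtraction of EO771 counts Kdm1b was at -0.25 against -0.29 before it, Ezh2 at 0.09 and Hspbap1 at 0.11 against 0.33 and 0.50, and Riox2 at -0.11 against 0.77, and none was called (adjusted p 0.131 to 0.842). Without the 2 all-even libraries none of the 4 was called (adjusted p 0.0687 for Ezh2 and 0.165 to 0.181 for the others). Each of the 4 calls also ended without MLg alone R6-2, and those of Kdm1b, Riox2 and Hspbap1 also without MLg alone R5-2 or R6-1 or MLg with EO771 R5-1.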

How the data were processed

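The authors deposited 1 table of raw counts per gene for each of 28 libraries, with no normalization. TruSeq stranded mRNA libraries were made from RNeasy RNA, per the labels' protocols. Per the submitters' processing notes, DESeq2, Subread 2.0.1, featureCounts, STAR 2.7.10a and fastp were used, with no role stated. No genome build, annotation or strand setting is given in the sources used here. All 55536 identifiers were found in the GENCODE M21 annotation of GRCm38, used for symbols and exon lengths. A pair of EO771 with C2C12 libraries (R5-1 and R5-2) has file names that carry each other's name; the recorded assignment was followed and both are in 1 group. No replicate pair agreed within sampling noise (lowest chi-square per degree of freedom 13.4).

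CPM was computed from library totals of 27.6 to 96.5 M deposited counts, at which a count of 0 allows up to 3 counts, or 0.0311 to 0.109 CPM, for counting error only. Tests used edgeR 4.0.16 (R 4.3.3): quasi-likelihood F test, TMM, filterByExpr (at least 10 counts, 15 in total) and p adjusted over all genes tested by Benjamini and Hochberg, with called meaning an adjusted p under 0.05. The EO771 libraries were fitted together, each host line alone, the 16 host libraries together for the interaction, and the lines grown alone together. The script was tested on simulated data. The alternatives were library totals, DESeq2 1.42.0, no filter, halved even counts, R number as replicate block, all libraries in 1 fit, only the 2 groups compared, partner counts subtracted, C2C12 without R number 3, and each library left out.

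The R numbers are of unstated meaning. Same-numbered C2C12 libraries deviated together (4 of 4 correlations of deviations over 0.1, 0.374 to 0.675), against 3 of 12 pairs of other numbers (median -0.214). These same-numbered pairs share libraries with each other, and C2C12 alone R2-1 and C2C12 with EO771 R6-1 have no same-numbered partner. The numbers thus pair the C2C12 samples only in part. For EO771 8 of 12 same-numbered pairs passed (median 0.118, lowest 0.004), against 6 of 36 pairs of other numbers (median -0.055). For MLg 3 of 5 passed (median 0.11), against 4 of 11 pairs of other numbers (median -0.074). Whether the numbers pair the EO771 or MLg samples is not settled by these values. The main tests did not use the numbers.

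The members, gene lists and motifs were chosen with earlier results of these data known. All 10 members are named in every comparison. From each further list up to 2 called genes with the largest rise and 2 with the largest fall, at a mean of at least 5 CPM, were named per comparison of co-culture with culture alone. For likeness, the 3 genes closest to Kdm3a and to the member with the widest range were named. Some genes named by the rule on likeness of pattern are not reported here.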

Additional observations from a re-analysis of the deposited data

Results flagged for a closer look

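Of the 70 sets of 4 libraries (10 genes in 7 groups), 5 held a library far from the other 3 by Dixon's criterion, which chance gives in about 1 set in 20. Kdm2b in EO771 alone was 37.0 CPM in R3-2 and 29.9 to 31.0 CPM in the others. Kdm3b in MLg with EO771 was 90.3 CPM in R6-2 and 79.3 to 80.6 CPM in the others. Kdm4a in EO771 with MLg was 188 CPM in R7-1 and 150 to 154 CPM in the others, and this library lies within the range of EO771 alone. Kdm4a in MLg alone was 106 CPM in R3-2 and 112 to 114 CPM in the others. Kdm4b in EO771 alone was 26.8 CPM in R5-1 and 23.3 to 23.9 CPM in the others, all under the lowest value of EO771 with C2C12, 50.5 CPM.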

How the results depend on the processing

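The 5 rises in EO771 with C2C12 against EO771 alone were called under all 8 other settings chosen at the start and with each of the 12 EO771 libraries left out in turn; log2 fold changes over the libraries left out were 1.70 to 1.97 for Kdm7a and 0.32 to 0.40 for Kdm3a. For EO771 with MLg against EO771 alone the number of demethylase genes called fell from 2 to 1 with no filter on low counts, with partner counts subtracted and with only the 2 groups compared, and was 1 to 2 with 1 library left out. For MLg with EO771 against MLg alone it fell from 2 to 0 with all 28 libraries in one fit, with partner counts subtracted and without the all-even libraries, and was 0 to 2 with 1 library left out. With no filter on low counts Kdm7a gained a call in that comparison. For C2C12 alone against MLg alone it fell from 8 to 5 with library totals. Riox2 in MLg with EO771 went from 0.77 to -0.11 with partner counts subtracted. With R number as replicate block the number called was 5 of 10 for EO771 with C2C12, 2 for EO771 with MLg, 6 for their contrast, 0 for C2C12 with EO771 and 2 for MLg with EO771; with the block the only member calls that changed were those of Kdm4a in the contrast of the co-cultured EO771 groups (gained), Kdm3a in EO771 against C2C12 alone and Kdm6b in C2C12 against MLg alone (both lost). In the comparison of C2C12 with EO771 against C2C12 alone, where same-numbered libraries deviated together, no call changed. Causes were not tested.

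Over all members and comparisons, 641 of 660 values under those settings and 1015 of 1040 with 1 library left out kept their direction where called and their side of the threshold, and none reversed. Over all genes, counts of calls moved by more than 1.5 times in EO771 with C2C12 without the all-even libraries (2949 higher and 2256 lower against 1035 and 287) and likewise against EO771 with MLg (2368 and 2003 against 561 and 171), where 1 library of EO771 with C2C12 is left. With partner counts subtracted they went from 946 and 569 to 398 and 475 in EO771 with MLg, from 429 and 16 to 123 and 6 in C2C12 with EO771, from 1663 and 809 to 550 and 224 in MLg with EO771, and from 145 and 198 to 21 and 18 in the interaction. DESeq2 gave 755 and 66 in C2C12 with EO771 and 331 and 400 in the interaction, and all 28 libraries in one fit gave 1082 and 94, and 242 and 307. In MLg with EO771 they were 897 and 256 without the all-even libraries, and the interaction without them gave 62 and 116. Other moves were in the genes called lower. In MLg with EO771 these went from 809 to 507, 440 and 401 without MLg alone R5-2, R6-1 and R6-2, to 468 without MLg with EO771 R6-1, to 276 with all 28 in one fit and to 1291 with the replicate block. In EO771 with MLg they went from 569 to 350 without EO771 alone R5-1, to 373 without EO771 with MLg R6-2 and to 329 with all 28. Between the co-cultured EO771 groups they went from 2003 to 1326 without EO771 with C2C12 R3-1, and in C2C12 with EO771 from 16 to between 4 and 75 with 1 library left out and to 36 without R number 3. The halved even counts changed no member call. Depth limits the members little: the lowest member mean, 16.5 CPM for Kdm5b in EO771 with MLg, is far above the highest floor of 0.109 CPM.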
